A study of Mus musculus with 10 samples.

Results

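The genes described here encode plasma proteins of coagulation and complement that hepatocytes secrete. The 36 members, 22 of coagulation and 14 of complement, were taken by their gene symbol on the array's annotation. Of these, 33 could be analysed, 21 of coagulation and 12 of complement, among 12855 genes tested. C3 and Cpb2 were not analysed here, and C4b was not because its probe set also carries the name of C4a. RNA came from livers of male C57BL/6 NHsd mice, which had received lipid nanoparticles with siRNA, or buffer, into the tail vein. The groups were PBS (2 livers), a control siRNA at 1.5 mg/kg (4 livers) and siRNAs against all Rab5 genes at 1.5 mg/kg (4 livers), each taken on day 5. The control is a scrambled RNA by its label and a luciferase siRNA by the study's design text. Rab5 is a small GTPase of early endosomes, and the nanoparticles were given to the whole animal, with no restriction to hepatocytes stated. The labels number the livers without tying each to its own mouse, so the p-values speak of the spread among the livers measured, which may be technical in part. Values are log2 signals of a probe set, and changes are differences of group means on that scale.

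Coagulation turns soluble fibrinogen into fibrin through a cascade of serine proteases. Several of these need vitamin K-dependent carboxylation in the endoplasmic reticulum of the hepatocyte, and inhibitors such as antithrombin and protein C keep the cascade in check. Complement is a second protease cascade, started by antibodies, by lectins that bind microbial sugars, or spontaneously through C3, and it ends in a pore built from C5b to C9. The liver makes most of the circulating proteins of both systems, and some of them change in the acute phase response.

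Array quality and the labels were checked before the members. Within a group, Pearson's r between arrays ran from 0.975 to 0.992 across genes, which are not independent replicates, and between groups from 0.942 to 0.991. Of the targeted genes, Rab5a fell to 28.6% of its control siRNA signal in limma (change -1.81, adjusted p = 1.16e-05) and Rab5c to 25.1% (change -1.99, adjusted p = 1.64e-07), while the dim Rab5b did not pass (change -0.24, adjusted p = 0.194). The 7 hepatocyte markers averaged between 12.98 and 13.16 in every siRNA array, and 1 of them, Ahsg, differed between the siRNA groups (0.69). Among Kupffer cell and macrophage markers 8 of 12 rose and none fell, and their mean went from between 8.37 and 8.73 with control siRNA to between 8.79 and 9.36 with Rab5 siRNA. Of 7 sinusoidal endothelial markers 3 fell, Gpr182 by 0.50, Clec4g by 0.43 and Oit3 by 0.43 on the log2 scale. Kdr (-0.20), Stab1 (0.17), Lyve1 (0.11) and Stab2 (0.05) did not pass. The means of this list were 7.56 to 7.69 with control siRNA and 7.27 to 7.63 with Rab5 siRNA. The corresponding means were 7.55 to 7.87 and 7.60 to 8.01 for stellate cell markers, 5.56 to 5.81 and 5.53 to 5.65 for platelet markers, and 6.08 to 7.23 and 6.45 to 6.92 for neutrophil and monocyte markers. In these lists 1 of 7 stellate markers rose, 1 of 5 platelet markers fell and 1 of 5 neutrophil and monocyte markers rose. The platelet list lay nearest to the value of 4.33 above which a probe set was kept. The part of these cells in the members' values was not tested. In whole liver fewer cells of a type and less RNA per cell cannot be told apart.

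Between Rab5 siRNA and control siRNA, 9 of the 33 members passed the test, 7 lower and 2 higher. That is 27.3%, beside 23.3% of all genes tested, of which 13.8% were called higher and 9.51% lower. Complement members passed in 5 of 12 cases (41.7%) with 4 lower and 1 higher, and coagulation members in 4 of 21 (19%) with 3 lower and 1 higher. The difference between these shares was not tested, since members are not replicates. The falls were those of C8g, Mbl1, Masp2 and C9 in complement and of Klkb1, F7 and Proc in coagulation, and the rises those of C4bp and Pros1. Klkb1, Masp2, Mbl1 and C8g passed under each of the 20 alternative settings tried.

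The changes of each class are given as a description, with no test of one class against the other. Coagulation had 17 of 21 members below 0, a range from -0.58 to 0.50 and a median of -0.16, between -0.20 and -0.14 over the alternatives. Complement had 6 members below 0 and 6 above, a median of 0 that lay between -0.05 and 0.03 over the alternatives, and a range from -0.93 to 0.49. The median size of a change, regardless of sign, was 0.18 for coagulation, 0.28 for complement and 0.18 for all genes, whose median was 0. The arrays of the siRNA groups did not overlap for 7 of 21 coagulation members, all lower with Rab5 siRNA. They did not overlap either for 6 of 12 complement members, 5 lower and 1 higher. Of all 12855 genes 25% had no overlap, 1434 lower and 1777 higher. Some of these members without overlap did not pass the test, namely F2, Serpind1, Plg, Hrg and C8b.

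**Figure D1:**
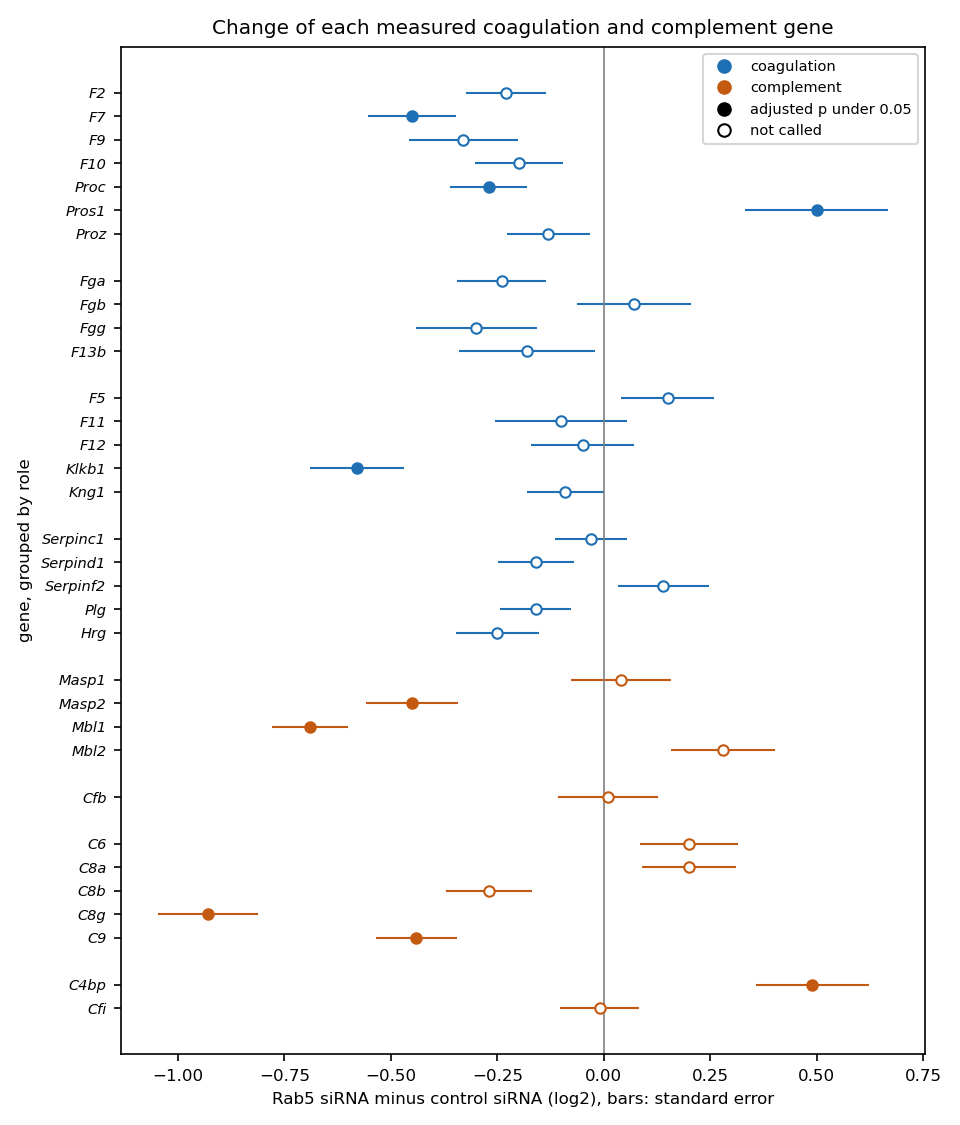
Change of each of the 33 measured genes between Rab5 siRNA and control siRNA (log2, 4 arrays each), with bars for the standard error, filled points for adjusted p under 0.05, blue for coagulation and orange for complement. Coagulation genes reach from -0.58 for Klkb1 to 0.50 for Pros1, with 17 of 21 below 0, and complement genes from -0.93 for C8g to 0.49 for C4bp, with 6 of 12 below 0.

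Averaged over members, both classes lay slightly lower with Rab5 siRNA. The mean of the coagulation members, with the control siRNA mean set to 0, was -0.07, 0.03, 0 and 0.04 in the control arrays numbered 1 to 4 and -0.17, -0.17, -0.10 and -0.10 in the Rab5 arrays. All Rab5 arrays were below all control arrays. For complement the same mean was -0.11, 0.02, 0.09 and 0 in control arrays and -0.12, -0.18, -0.11 and -0.11 in Rab5 arrays, so that control array 1 was as low as the Rab5 arrays. Coagulation minus complement stayed between -0.09 and 0.08 in all 10 arrays, and the siRNA groups overlapped in it.

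**Figure D2:**
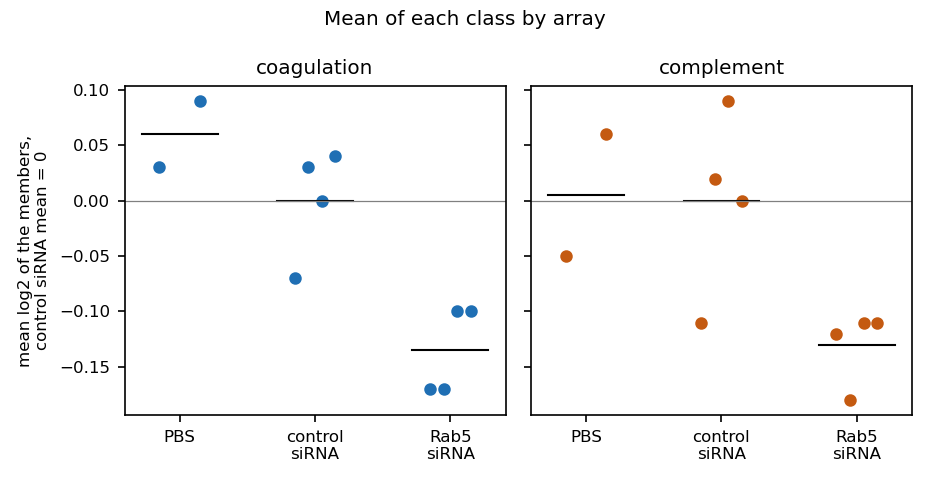
Mean log2 value of the 21 coagulation and the 12 complement genes in each array, with the control siRNA mean set to 0. Points are arrays and lines are group means. Rab5 arrays lie between -0.17 and -0.10 for coagulation and between -0.18 and -0.11 for complement.

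The vitamin K-dependent proteins comprise prothrombin (F2), factors VII, IX and X (F7, F9 and F10), the anticoagulant protein C (Proc), its cofactor protein S (Pros1) and protein Z (Proz). Of these 7 genes F7 and Proc fell and Pros1 rose. F7, whose product starts coagulation together with tissue factor, had 9.17, 9.12, 9.16 and 9.34 in the control arrays and 8.87, 8.78, 8.86 and 8.51 in the Rab5 arrays. The groups did not overlap, and the change was -0.45 (SE 0.104, adjusted p = 0.00709), which left 73.4% of the signal. Without the arrays numbered 2 its adjusted p was 0.0527.

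Protein C and protein S, which act together against factors V and VIII, went opposite ways. Proc had 11, 10.91, 10.95 and 10.84 in control arrays and 10.78, 10.58, 10.67 and 10.59 in Rab5 arrays, again without overlap. Its change was -0.27 (SE 0.0905, adjusted p = 0.0452). Pros1 had 7.19, 7.45, 7.51 and 7.49 in control arrays and 7.37, 7.98, 7.95 and 8.32 in Rab5 arrays. Rab5 replicate 1 lay within the control values, and the other Rab5 arrays above them, for a change of 0.50 (SE 0.168, adjusted p = 0.049). Both calls stood just under the threshold. Leaving out any 1 array other than Rab5 replicate 1 ended them, with adjusted p between 0.0525 and 0.128 for Proc and between 0.0587 and 0.133 for Pros1. Without Rab5 replicate 1 the adjusted p was 0.0276 for Proc and 0.00181 for Pros1, whose change was then 0.67. The difference of Pros1 and Proc within an array shifted by 0.77. This and the other 6 differences between members given here belong to 7 pairs chosen after their values were seen, so they are descriptions with no test. Pros1 is also made outside hepatocytes, and the mean of the Kupffer cell and macrophage markers, with the control mean set to 0, stood at 0.20, 0.73, 0.77 and 0.77 in the Rab5 arrays, lowest in the same array as Pros1. By the same mean Rab5 replicate 1 was also the lowest Rab5 array for stellate cell markers (-0.10) and for neutrophil and monocyte markers (-0.29). It was the highest for sinusoidal endothelial markers (0.01) and lay between the others for platelet and hepatocyte markers. The part of any of these cells in the rise of Pros1 was not tested.

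The other vitamin K-dependent genes did not pass. F2 changed by -0.23 (adjusted p = 0.0937), with no overlap between 12.34 to 12.48 in control arrays and 12.05 to 12.28 in Rab5 arrays. With estimated array weights F2 passed (adjusted p = 0.025). F9, the factor missing in haemophilia B, had 10.16, 10.44, 10.22 and 10.23 in control arrays and 9.66, 9.98, 9.85 and 10.25 in Rab5 arrays, a change of -0.33 (SE 0.128, adjusted p = 0.0849). The highest Rab5 array lay among the control values. With the replicate number as a block the adjusted p was 0.0465, with arrays centred on their median 0.0499, and without Rab5 replicate 4 it was 0.0226 with a change of -0.43. F10 changed by -0.20 (adjusted p = 0.189), and its 2 dimmer probe sets by -0.07 and -0.05. Proz changed by -0.13 (adjusted p = 0.356) on its brighter probe set and by 0.43 (adjusted p = 0.0309 over all probe sets) on a dimmer one, so its direction depends on the probe set. F7, F10 and Proz lie next to each other in RefSeq order, with no other protein-coding gene between F7 and F10 or between F10 and Proz. Only F7 passed of these neighbours, and whether its change differed from theirs was not tested.

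Fibrinogen and the subunit that carries its cross-linking enzyme showed no call. Fga, Fgb and Fgg encode the chains of fibrinogen, and F13b the carrier subunit of factor XIII. Fga had 12.73, 12.79, 12.86 and 12.85 in control arrays and 12.42, 12.47, 12.80 and 12.59 in Rab5 arrays, a change of -0.24 (SE 0.105, adjusted p = 0.129). Fgg had 12.60, 12.66, 12.82 and 12.84 against 12.21, 12.14, 12.70 and 12.70, a change of -0.30 (SE 0.142, adjusted p = 0.155). Fgb had 12.52, 12.75, 12.86 and 12.84 against 12.62, 12.61, 13.01 and 13.03, a change of 0.07 (SE 0.134, adjusted p = 0.743). The groups overlapped for all chains. In Rab5 arrays 3 and 4 all chains were at or above their level in Rab5 arrays 1 and 2, and in control arrays 3 and 4 above their level in control arrays 1 and 2. F13b changed by -0.18 (SE 0.159, adjusted p = 0.46). With estimated array weights Fgg passed (adjusted p = 0.0375), and the other members of this group passed under none of the alternatives.

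The contact system starts coagulation on charged surfaces and releases bradykinin from kininogen. Klkb1, which encodes plasma prekallikrein, was the coagulation member with the largest change. It had 9.71, 9.97, 9.84 and 9.86 in control arrays and 9.33, 9.43, 9.01 and 9.27 in Rab5 arrays, without overlap. The change was -0.58 (SE 0.111, adjusted p = 0.00185), which left 66.7% of the signal. The substrates and partners of kallikrein did not pass. Kng1, the kininogen, changed by -0.09 (SE 0.0906, adjusted p = 0.515), with -0.10 on a second probe set. F12, the factor that kallikrein activates, changed by -0.05 (SE 0.12, adjusted p = 0.82), and F11 by -0.10 (SE 0.155, adjusted p = 0.682).

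F11 is the paralog of Klkb1 and its direct neighbour in RefSeq order. The per-array difference of Klkb1 and F11, with its control mean set to 0, was -0.11, 0.25, 0.30 and -0.44 in control arrays and -0.33, -0.30, -0.59 and -0.71 in Rab5 arrays. The mean shift was -0.48, and the groups overlapped. F5, the cofactor of factor X that platelets also carry, changed by 0.15 (SE 0.109, adjusted p = 0.362) and by 0.18 on its other probe set.

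Among inhibitors and fibrinolysis genes none of the 5 measured passed between the siRNA groups. Serpinc1, encoding antithrombin, was among the steadiest members, with 13.02, 12.98, 13.08 and 13.02 in control arrays and between 12.91 and 13.04 in Rab5 arrays (change -0.03, SE 0.0839, adjusted p = 0.817). Serpind1, heparin cofactor II, changed by -0.16 (SE 0.0894, adjusted p = 0.235) and Serpinf2, the inhibitor of plasmin, by 0.14 (SE 0.107, adjusted p = 0.371). Plg, plasminogen, had 12.73 to 12.85 in control arrays and 12.60 to 12.70 in Rab5 arrays, a change of -0.16 without overlap that did not pass (SE 0.0837, adjusted p = 0.206). Hrg, a heparin- and plasminogen-binding glycoprotein, had 11.97 to 12.12 and 11.60 to 11.93, a change of -0.25 (SE 0.0981, adjusted p = 0.09). With array weights Hrg passed (adjusted p = 0.0473).

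In the lectin pathway of complement, mannose-binding lectins recognise sugars. Masp1 and Masp2 are proteases of this pathway, which leads to the cleavage of C4 and C2. Mbl1 and Masp2 fell, while Mbl2 and Masp1 did not pass. Mbl1 had 10.48, 10.59, 10.64 and 10.55 in control arrays and 9.83, 9.81, 9.91 and 9.94 in Rab5 arrays. All Rab5 values lay below all control values, and the change was -0.69 (SE 0.0896, adjusted p = 0.000101), which left 61.8% of the signal. Mbl2, the other mouse lectin of this type, had 11.51, 11.79, 11.90 and 11.38 in control arrays and 11.90, 11.81, 11.87 and 12.11 in Rab5 arrays, a change of 0.28 (SE 0.123, adjusted p = 0.122). The highest control array stood above 2 of the Rab5 arrays, so the groups overlapped.

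The per-array difference of Mbl1 and Mbl2 moved by -0.97 between the groups. With its control mean set to 0 it was 0.06, -0.13, -0.18 and 0.25 in control arrays and -0.99, -0.92, -0.89 and -1.09 in Rab5 arrays. All Rab5 arrays were below all control arrays. The 250 bases before the transcription start of both genes are shown to set these paralogs side by side, 5′ to 3′ on the gene's strand. They come from RefSeq, build GRCm38.p6, at chr14:41151206-41151455 for Mbl1 and chr19:30232678-30232927 for Mbl2, both on the plus strand. Capitals mark the longest stretch that both windows share, of 13 bases, which lies at positions -23 to -11 in Mbl1 and -57 to -45 in Mbl2, counted from the start.
Mbl1: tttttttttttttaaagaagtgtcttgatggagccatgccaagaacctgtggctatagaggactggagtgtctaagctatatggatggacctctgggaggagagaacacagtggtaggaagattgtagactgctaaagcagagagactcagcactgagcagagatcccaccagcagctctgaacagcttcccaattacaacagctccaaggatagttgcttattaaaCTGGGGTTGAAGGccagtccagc
Mbl2: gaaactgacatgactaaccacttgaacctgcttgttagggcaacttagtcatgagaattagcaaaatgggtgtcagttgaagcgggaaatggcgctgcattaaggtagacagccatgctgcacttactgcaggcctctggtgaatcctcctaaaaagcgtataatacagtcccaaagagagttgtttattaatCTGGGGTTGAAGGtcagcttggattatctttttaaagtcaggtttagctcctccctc

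Masp2 had 9.31, 9.09, 9.40 and 9.36 in control arrays and 9.05, 8.81, 8.85 and 8.65 in Rab5 arrays. The groups came close to each other at 9.09 and 9.05 but did not overlap. The change was -0.45 (SE 0.108, adjusted p = 0.00811), and a second probe set gave -0.64 (SE 0.105, adjusted p = 8e-04 over all probe sets). Masp1 changed by 0.04 (SE 0.118, adjusted p = 0.843), and its other 4 probe sets, 1 of them too dim to be kept, by between -0.13 and -0.04. The difference of Masp2 and Masp1 shifted by -0.49, with overlapping groups.

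The membrane attack complex forms from C5b, C6, C7, C8 and C9. C8 is a single protein of 3 chains, each with its own gene, C8a, C8b and C8g, and the gamma chain is a lipocalin bound to the alpha chain. C8g showed the largest change of all members, while the genes of the other chains did not pass. C8g had 12.24, 12.13, 12.14 and 12.16 in control arrays and 11.55, 11.28, 11.14 and 10.98 in Rab5 arrays. Control arrays lay close together and Rab5 arrays far below them, with Rab5 replicate 1 the nearest. The change was -0.93 (SE 0.118, adjusted p = 8.36e-05), which left 52.4% of the signal.

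C8a and C8b, which are neighbours in RefSeq order, did not pass, and their difference from each other was not tested. C8a had 11.31, 11.65, 11.66 and 11.65 in control arrays and 11.66, 11.78, 11.77 and 11.86 in Rab5 arrays, a change of 0.20 (SE 0.11, adjusted p = 0.224) in which control replicate 1 stood below all other arrays. C8b had 10.24, 10.28, 10.46 and 10.26 against 10.19, 9.90, 10.13 and 9.93, a change of -0.27 without overlap (SE 0.101, adjusted p = 0.0734). C8b passed without Rab5 replicate 1 (adjusted p = 0.0394), with array weights (0.0135), after quantile normalization (0.0482) and with arrays centred on their median (0.0488). As a description, with no test, C8g minus C8a shifted by -1.13 and C8g minus C8b by -0.66. In both differences every Rab5 array was below every control array.

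**Figure D3:**
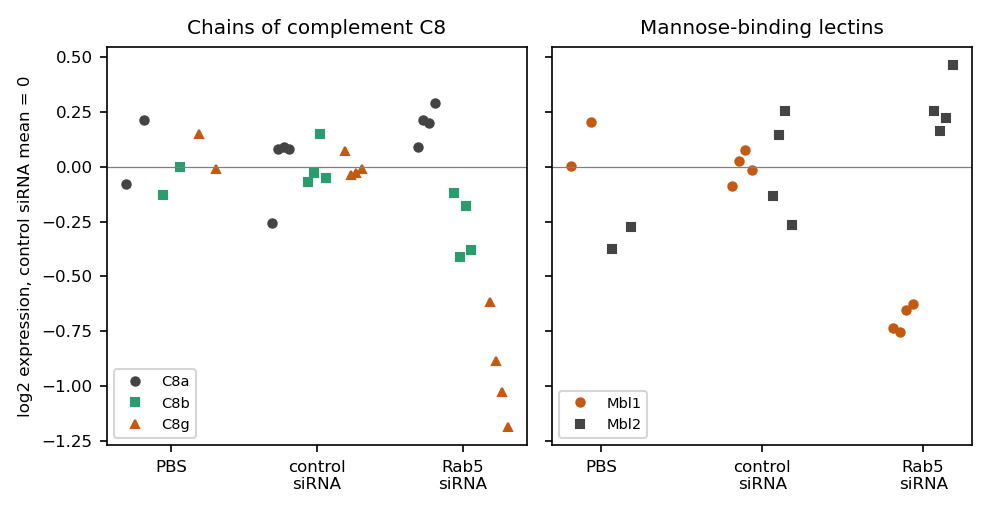
Log2 values of the 3 C8 chains (left) and the 2 mannose-binding lectins (right) in every array, each gene with its control siRNA mean set to 0. C8g and Mbl1 drop in all 4 Rab5 arrays, C8b lies slightly lower, and C8a and Mbl2 lie at or above 0 there.

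C9, which forms the wall of the pore, had 12.43, 12.70, 12.50 and 12.60 in control arrays and 12.07, 12.09, 12.09 and 12.24 in Rab5 arrays. The groups did not overlap, and the change was -0.44 (SE 0.0947, adjusted p = 0.00463), which left 73.9% of the signal. Without the arrays numbered 2 its adjusted p was 0.0735. C6, which starts the assembly on C5b, had overlapping groups and a change of 0.20 (SE 0.115, adjusted p = 0.243). C9 minus C6 shifted by -0.63, again with every Rab5 array below every control array.

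C4bp, the C4b-binding protein that limits complement, was the complement member that rose. It had 10.43, 10.71, 10.61 and 10.70 in control arrays and 10.73, 11.17, 11.10 and 11.42 in Rab5 arrays. Rab5 replicate 1 stood barely above the control arrays and the others well above them. The change was 0.49 (SE 0.133, adjusted p = 0.0165), and the adjusted p was 0.0515 without control replicate 1, 0.0999 without the arrays numbered 2 and 0.00142 without Rab5 replicate 1. Pros1 was the other member that rose. In both genes Rab5 replicate 1 was the lowest of the Rab5 arrays and replicate 4 the highest. Cfi, the protease that cleaves C3b and C4b, changed by -0.01 (SE 0.0924, adjusted p = 0.932), and Cfb, the protease of the alternative pathway, by 0.01 (SE 0.117, adjusted p = 0.961).

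**Figure D4:**
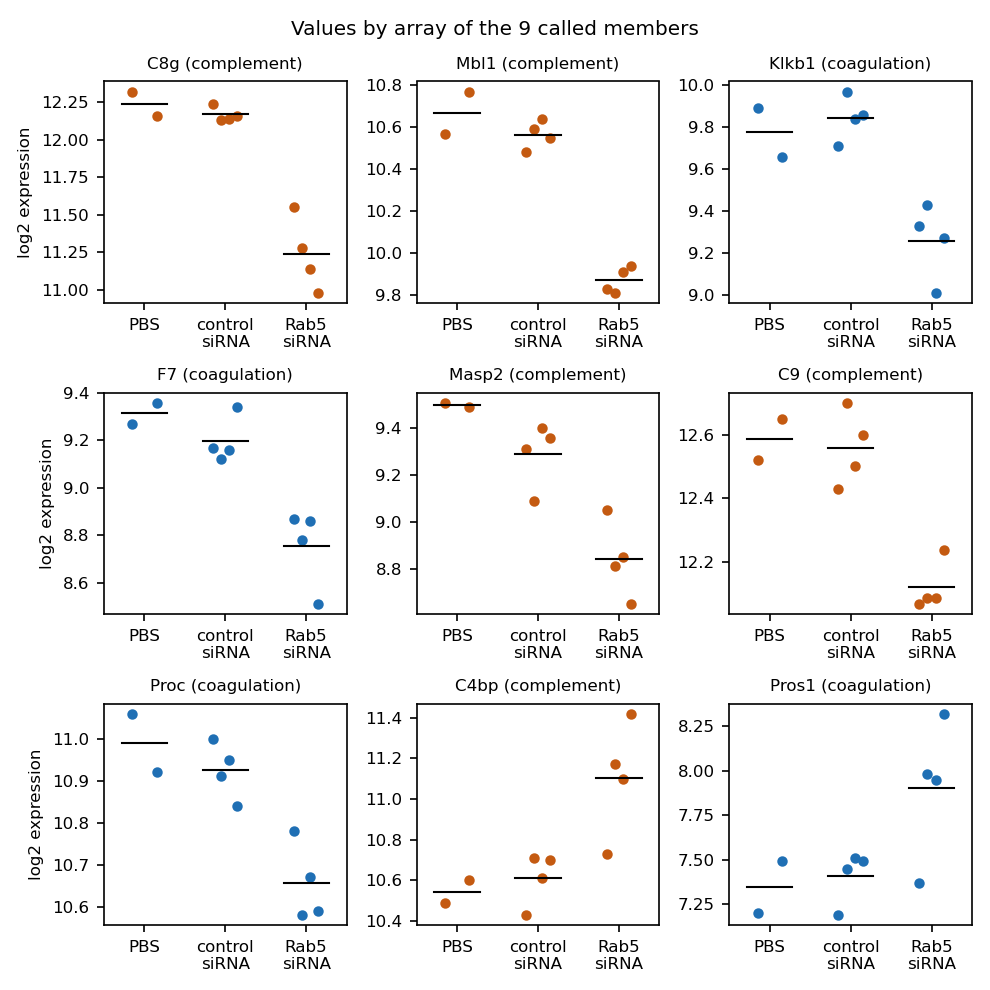
Log2 values in each array (points) and group means (lines) of the 9 members with adjusted p under 0.05 between Rab5 siRNA and control siRNA, ordered from the largest fall to the largest rise, each panel with its own axis. In 8 panels the siRNA groups do not overlap, and in that of Pros1 the lowest Rab5 array lies within the control values.

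Nanoparticles with control siRNA changed no member against PBS. Of all genes 0% were called by limma (0 of 12855, with 554 at an unadjusted p under 0.05), and 0 of 33 members had an unadjusted p under 0.05. The members' changes lay between -0.25 for Fgb and 0.32 for Mbl2, with a median of -0.04, beside -0.01 for all genes. With 2 PBS arrays this comparison is imprecise. The PBS arrays 1 and 2 also differed in acute phase genes, with 7.40 and 11.61 for Lcn2 and 11.9 and 13.44 for Saa1. Fga (12.84 and 13.09), Fgb (12.81 and 13.18) and Fgg (12.75 and 13.03) were higher in PBS array 2 as well. The part of this in the changes against PBS was not tested. Leaving out control replicate 4 gave 18 calls over all genes, and leaving out control replicate 1 gave 4. The same count was 2 when Rab5 replicate 2 was dropped and 1 when Rab5 replicate 1 was. Members had 0 calls in each of these fits.

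Against PBS, which shares the Rab5 arrays with the comparison above, Rab5 siRNA changed 9 members, 7 lower and 2 higher, beside 17.1% of all genes. Coagulation had 3 of 21 called and complement 6 of 12. C8g stood at -1.0 (SE 0.144, adjusted p = 0.000354), Mbl1 at -0.79 (SE 0.11, adjusted p = 0.000263), Masp2 at -0.66, F7 at -0.56, Klkb1 at -0.52 and C9 at -0.46. Hrg passed here, with 12.19 and 12.30 in PBS arrays and a change of -0.44 (SE 0.12, adjusted p = 0.0233). The rises were those of C4bp (0.56, SE 0.163, adjusted p = 0.0302) and Mbl2, which had 11.27 and 11.37 in PBS arrays (0.60, SE 0.151, adjusted p = 0.0142). The control siRNA mean of Mbl2, 11.64, lay between its PBS mean of 11.32 and its Rab5 mean of 11.93. Proc (-0.33, adjusted p = 0.0588), Pros1 (0.56, adjusted p = 0.0832) and Fga (-0.40, adjusted p = 0.0512) did not pass. The calls rest on few arrays. With either PBS array left out, 1 coagulation and 3 complement members were called, and with all arrays numbered 2 left out, 0 and 2. Coagulation had 5 calls when Rab5 replicate 1 was dropped and 5 when Rab5 replicate 4 was. Over all genes these 2 fits called 2629 and 1949, beside 2201 with all arrays.

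Genes around the members were taken from lists set beside them. Of 13 measured other genes of coagulation and fibrinolysis 2 rose and 2 fell. Vkorc1, the reductase that regenerates vitamin K, changed by -0.36 (adjusted p = 0.0403) and its homolog Vkorc1l1 by 0.46 (adjusted p = 0.0113), while Ggcx, the carboxylase itself, changed by -0.05 (adjusted p = 0.786) and did not pass. Lman1, the cargo receptor that carries factors V and VIII out of the endoplasmic reticulum, changed by -0.33 (adjusted p = 0.0376). Its partner Mcfd2 changed by 0.13 and did not pass. Thrombomodulin, Thbd, an endothelial cofactor in the activation of protein C, rose by 0.73 (adjusted p = 0.0349). Its groups overlapped, at 5.17 to 5.99 in control arrays and 5.78 to 7.02 in Rab5 arrays.

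Of 23 measured other complement genes 7 rose and 1 fell. C1qb (0.77, adjusted p = 0.0136) and C1qc (0.63, adjusted p = 0.000603), chains of the starter of the classical pathway, rose, as did the integrin chain Itgb2 (0.67, adjusted p = 0.00177), Clu (0.51, adjusted p = 0.00395) and the complement receptor Vsig4 (0.49, adjusted p = 0.0413). Macrophages express C1q, Itgb2 and Vsig4, and of the 8 Kupffer cell and macrophage markers outside complement 5 rose and none fell, with a median of 0.83. C1qa, the remaining chain of C1q, changed by 0.26 (adjusted p = 0.0946) and did not pass. The part of macrophages in the rise of C1qb and C1qc was not tested. Cd59a, which blocks the assembly of C9, fell by 0.62 on the log2 scale (SE 0.091, adjusted p = 0.000272).

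Of 18 measured hepatocyte regulators and genes of the interleukin 6 response 3 rose and 2 fell. The transcription factor Cebpa changed by -0.88 (SE 0.153, adjusted p = 0.00101), the bile acid receptor Nr1h4 by -0.36 (adjusted p = 0.0439), Foxa3 by 0.54 (adjusted p = 0.00628) and Foxa1 by 0.32 (adjusted p = 0.049). The acute phase gene Lcn2 rose by 2.45 (SE 0.798, adjusted p = 0.0412), from between 7.05 and 8.83 with control siRNA to between 8.62 and 11.64, while PBS arrays had 7.40 and 11.61. Hnf4a (-0.17), Stat3 (-0.18), Saa1 (0.57) and Hp (0.19) did not pass.

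RefSeq promoters were found for 27 of the 33 measured members. Short motifs of liver and acute phase factors were searched on both strands in the 250 bases before the start, and a match only says that these letters are present. The letters TTGCNNAA, bound by C/EBP factors, were in 7 of the 27 (25.9%) and in 9.56% of all 32851 promoters of this length. TTCNNNGAA, bound by STAT3, was in 6 (22.2%, beside 7.02% of all), the interleukin 6 response letters CTGGGAA in 4 (14.8%, beside 9.1%) and the HNF1 letters GTTAATNAT in 3 (11.1%, beside 0.737%). The stricter C/EBP letters TTGCGCAA, a subset of the first, and the HNF4 letters CAAAGTCCA and AGGTCAAAG were in none, beside 0.164%, 0.384% and 0.381% of all. Of the 6 members that fell and have a promoter here, 2 held the C/EBP letters (Klkb1 and C9), beside 5 of the other 21. The STAT3 letters were in 1 that fell (Masp2), where they overlapped those of interleukin 6. They were also in 5 of the other 21, among them Pros1, which rose. None that fell held the HNF1 letters, which were in Fga, F13b and C4bp.

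The windows of 4 called members with a match are shown, and that of Pros1 is not. Matched letters are in capitals, 5′ to 3′ on the gene's strand in build GRCm38.p6. They lie at chr8:45294836-45295085 on the minus strand for Klkb1 (C/EBP), chr15:6445096-6445345 on the plus strand for C9 (C/EBP), chr4:148602294-148602543 on the plus strand for Masp2 (STAT3 and interleukin 6) and chr1:130661619-130661868 on the minus strand for C4bp (HNF1).
Klkb1: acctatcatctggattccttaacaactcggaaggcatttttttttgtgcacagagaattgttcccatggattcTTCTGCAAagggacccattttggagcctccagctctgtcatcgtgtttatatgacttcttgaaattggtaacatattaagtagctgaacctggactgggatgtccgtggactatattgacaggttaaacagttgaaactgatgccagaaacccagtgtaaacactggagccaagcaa
C9: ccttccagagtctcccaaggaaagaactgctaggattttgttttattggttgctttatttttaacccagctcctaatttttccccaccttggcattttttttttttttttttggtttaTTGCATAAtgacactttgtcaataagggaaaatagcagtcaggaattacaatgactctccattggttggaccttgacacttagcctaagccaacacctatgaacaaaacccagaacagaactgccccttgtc
Masp2: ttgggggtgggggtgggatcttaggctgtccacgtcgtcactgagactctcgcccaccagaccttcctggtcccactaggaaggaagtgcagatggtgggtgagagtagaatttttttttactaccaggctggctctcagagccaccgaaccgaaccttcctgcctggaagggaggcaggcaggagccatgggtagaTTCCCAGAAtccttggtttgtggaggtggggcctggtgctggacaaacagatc
C4bp: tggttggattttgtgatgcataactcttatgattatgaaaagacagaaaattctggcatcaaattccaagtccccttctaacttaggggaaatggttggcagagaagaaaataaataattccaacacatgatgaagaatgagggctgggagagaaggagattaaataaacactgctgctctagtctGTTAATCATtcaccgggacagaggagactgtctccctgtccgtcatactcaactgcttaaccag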

How the data were processed

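RNA of 10 livers was measured on Affymetrix arrays of the mouse genome, 1 array a liver. The authors deposited log2 expression values for 45101 probe sets. Affymetrix Expression Console, RMA and Partek 6.6 were used, per the submitters' processing notes, which give no order. RMA makes arrays alike, so a shift of all transcripts would not be seen. Array medians lay between 4.29 and 4.37, and precision depends on how few arrays there are. The members and lists were chosen with earlier results of these data known, and were matched by exact symbol to the platform annotation.

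Probe sets with 1 symbol and a value above the table's median (4.33) in at least 2 arrays were kept, and the brightest stood for its gene. All 33 members lay above 4.33 in every array. limma 3.58.1 in R 4.3.3 was fitted to all 10 arrays, a mean per group, over all 12855 genes, with Benjamini-Hochberg adjustment and a threshold of 0.05. On simulated arrays with 12855 genes, 200 of them changed, this recovered 40% of changes of 0.5 and 91% of changes of 1 between the siRNA groups. In the data 2993 genes were called, and the adjustment depends on that number, so these percentages need not hold for the members. Same-numbered arrays of the siRNA groups deviated together (r of 0.39, 0.15, 0.19 and 0.31 over genes), though those numbered 2 did not match each other best. The main fit was not paired, and the replicate number entered only as a block in an alternative fit. All members were named by rule, called ones in full, and of each related list at most 6 called genes with the largest change. Ggcx, Mcfd2, C1qa, Hnf4a, Stat3, Saa1, Hp, Kdr, Stab1, Lyve1 and Stab2 were named after their values were seen.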

Additional observations from a re-analysis of the deposited data

Results flagged for a closer look

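Among 66 sets of 4 arrays (33 members in each siRNA group), 2 held an array whose gap to the nearest other array was large for the range of the set, where chance would give about 1 in 20. C8a in control replicate 1 stood at 11.31, against 11.65 to 11.66 in the other control arrays. C9 in Rab5 replicate 4 stood at 12.24, against 12.07 to 12.09 in the other Rab5 arrays, and still below all control arrays.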

How the results depend on the processing

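The 9 called members kept their direction under all 20 alternatives, over which 33 calls of single members were lost and 10 gained, besides that of Proz, which was 0.43 (adjusted p = 0.023) on its most variable probe set, the dimmer one. Coagulation members called between Rab5 siRNA and control siRNA numbered 4, and 2 with no filter, 7 with array weights, 2 with only the groups compared, 1 without the arrays numbered 2 and 2 to 4 leaving out an array. Complement members called numbered 5, 3 without the arrays numbered 2 and 4 to 6 leaving out an array. For Rab5 siRNA against PBS the 3 coagulation calls became 5 with the filter at the 75th percentile, 5 with the mean of probe sets, 8 with array weights, 5 with arrays centred, 0 without the arrays numbered 2 and 1 to 5 leaving out an array, and the 6 complement calls became 2 without the arrays numbered 2 and 3 to 6 leaving out an array. For control siRNA against PBS, array weights called 3 genes, quantile normalization 2 and fits without an array 0 to 18. The calls over all genes moved as well. Between Rab5 siRNA and control siRNA 2993 were called, 2922 with no filter, 3929 with array weights and 2831 with only the groups compared. Leaving out an array of either siRNA group gave 2222 to 3420. Against PBS the count for Rab5 siRNA was 2201, and 3110 with array weights. It was 1991 with the filter at the 75th percentile, 2183 with the mean of probe sets and 2267 with arrays centred. With the replicate block 5 coagulation and 5 complement members were called, beside 3760 of all genes. F9 was added at adjusted p = 0.0465, and no other member's call changed. The arrays numbered 2 had the largest gap between the 3′ and the 5′ probe set of Gapdh (2.58, 2.86 and 2.67). Without them fewer arrays were fitted and 1549 genes were called in place of 2993.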
